A study of Mus musculus with 48 samples.

Results

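The tricarboxylic acid cycle enzymes examined here were the products of 9 genes, Cs, Idh3a, Idh3b, Ogdh, Suclg1, Sdha, Sdhb, Fh1 and Mdh2, matched by mouse symbol to the gene identifiers of 3 tables of read counts that each list 39017 genes. All 9 were found in every table, and all 9 passed the filter on low counts in each of them, the lowest count of any member in any library being 183 reads, for Ogdh. The cells were neural stem cells derived from the dentate gyrus of mice aged 7 to 8 weeks that carried Hopx-CreERT2, the floxed Setd1a fl/fl allele and an H2B-GFP reporter, and every library of the 12 groups shares this genotype. The cultures were kept in BMP4 and FGF2 without EGF, a medium that brings neural stem cells out of division. Those called WT received a lentivirus with GFP and still held the floxed allele, and those called KO received a lentivirus with Cre-GFP, which deletes the floxed part of Setd1a, the gene of a histone H3 lysine 4 methyltransferase. WT and KO cultures were harvested on days 4, 5, 6 and 9 of this medium with no further agent, and on day 7 after DMSO or after ORY-1001, called ORY below, an inhibitor of the histone demethylase LSD1, which is encoded by Kdm1a. The virus was added once the cultures had entered this medium. DMSO or ORY was given from the same time until harvest, so ORY was present from the addition of the virus. There were 4 libraries in each group, made by SMART-seq2 from total RNA of the whole culture. A cell that the virus did not reach stays in its culture and adds its RNA to the library, and in such bulk RNA fewer cells of a type and less RNA per cell cannot be told apart. The labels number the libraries of a group 1 to 4 without saying what the number stands for. The study's reporting summary describes the RNA-seq libraries of a group as independent cultures.

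Library totals ran from 5811077 to 8396175 counted reads on day 4, from 3137352 to 12374735 on days 5, 6 and 9, and from 4265876 to 20588555 on day 7. In each of the 6 groups of days 5, 6 and 9, libraries 1 and 3 resembled each other, as did 2 and 4. The chi-square of their counts over its degrees of freedom was lower within these pairs than in any other pair of the group, where it was 3.03 to 9.35. What this likeness comes from was not tested, and the members' results on these days are also given with each such pair summed to 1 sample, which leaves 2 samples a group. On day 7 the lowest values were those of libraries 1 and 2 and of 3 and 4 in WT with DMSO (3.80 and 2.97). The same pairs were lowest in KO with ORY (2.69 and 2.83). In KO with DMSO the lowest were 1 and 3 and 2 and 4 (3.47 and 3.14). In WT with ORY they were 2 and 3 and 2 and 4 (2.20 and 2.90), which share a library. On day 4 the lowest were 1 and 2 and 1 and 3 in WT (3.73 and 3.84). In KO on day 4 they were 1 and 2 and 3 and 4 (3.87 and 4.44). Libraries of days 4 and 7 were not summed. Levels are given in CPM, the usual scaling of a read count to its library total, with that total adjusted by TMM, a method that sets aside the genes that differ most. Setd1a was counted at group means of 1.63 to 3.87 CPM. On day 6 it was higher in KO without overlap, at 2.90 to 5.40 CPM against 1.29 to 2.68 in WT. So it was with ORY on day 7, at 2.78 to 3.62 CPM in KO against 2.01 to 2.61 in WT. On the other days and with DMSO the genotypes overlapped. In no comparison was it lower in KO without overlap, so its level does not check the labels. The counting does not tell reads of the floxed exons from reads of the rest of the gene. Kdm1a was counted at 52.7 to 86.4 CPM. The cells carried the markers of their label, 10 neural stem and radial glia genes summing to 10983 to 18341 CPM over the 48 libraries. The sums were 388 to 685 CPM for 6 neuron genes and 81.6 to 362 for 6 oligodendrocyte lineage genes, with Sox10 at 0 in all 48. They were 0.129 to 7.54 for 6 microglia genes, 14.2 to 69.9 for 6 endothelial and mural genes and at most 1.85 for 5 fibroblast genes. The 6 genes of dividing cells summed to 138 to 462 CPM.

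The tricarboxylic acid cycle runs in the mitochondrial matrix. It takes up the acetyl group of acetyl-CoA, releases its carbon as carbon dioxide and hands its electrons to the respiratory chain as NADH and as reduced flavin, while its intermediates feed the synthesis of lipids, amino acids and heme. Neural stem cells in the adult brain are known to change their use of lipid and mitochondrial metabolism as they leave and enter quiescence. In the order of the cycle, Cs (citrate synthase, chr10:128337734-128362479, plus strand) joins acetyl-CoA to oxaloacetate, and Idh3a (chr9:54586334-54604661, plus strand) and Idh3b (chr2:130279309-130284547, minus strand) encode the catalytic alpha and the beta subunit of the NAD-dependent isocitrate dehydrogenase. Ogdh (chr11:6291633-6356642, plus strand) encodes the first enzyme of the 2-oxoglutarate dehydrogenase complex, and Suclg1 (chr6:73248382-73276911, plus strand) the alpha subunit shared by the ATP- and GTP-forming succinyl-CoA ligases. Sdha (chr13:74322254-74350280, minus strand) and Sdhb (chr4:140961203-140979193, plus strand) encode the flavoprotein and the iron-sulfur subunit of succinate dehydrogenase, which is also complex II of the respiratory chain. Fh1 (chr1:175600374-175625635, minus strand) encodes fumarate hydratase, and Mdh2 (chr5:135778480-135790398, plus strand) the mitochondrial malate dehydrogenase that closes the cycle. Places are those of the GENCODE vM21 annotation of GRCm38. All 9 are nuclear genes, and reads were counted over their exons. Idh3b shares 0.146% of its exonic bases with its neighbour Nop56, and the counting did not use strand.

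The sequences before the start sites of Sdha, Mdh2 and Fh1 are shown because these members were called in 6 to 8 of the 16 comparisons below, 8 of the 9 members being matched to a RefSeq window and Idh3a not. Each is the part, within the 250 bases before the RefSeq start, that lies before the start of both the RefSeq and the GENCODE transcripts, written 5′ to 3′ on the strand of the gene in GRCm38.p6. It spans 210 bases for Sdha (chr13:74350281-74350490, minus strand), 250 bases for Fh1 (chr1:175625636-175625885, minus strand) and 81 bases for Mdh2 (chr5:135778399-135778479, plus strand). Capitals mark matches to the motif of nuclear respiratory factor NRF1, here GCGCA and GCGC with 1 base of any kind between them, and to ACGTG, the core bound by hypoxia-inducible factors.
Sdha: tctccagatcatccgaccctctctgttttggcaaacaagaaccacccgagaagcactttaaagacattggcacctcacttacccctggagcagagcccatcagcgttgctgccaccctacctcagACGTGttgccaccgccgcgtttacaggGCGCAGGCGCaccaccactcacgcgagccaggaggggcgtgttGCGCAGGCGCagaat
Fh1: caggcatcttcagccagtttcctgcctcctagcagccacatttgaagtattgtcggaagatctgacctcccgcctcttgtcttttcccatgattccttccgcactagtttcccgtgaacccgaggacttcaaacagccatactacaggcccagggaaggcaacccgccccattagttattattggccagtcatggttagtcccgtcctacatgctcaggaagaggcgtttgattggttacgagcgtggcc
Mdh2: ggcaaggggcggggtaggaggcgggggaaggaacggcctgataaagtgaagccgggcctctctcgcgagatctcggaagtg

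The 4 motifs of factors known for mitochondrial or hypoxia genes were searched on both strands in the 250 bases before the RefSeq start, for 8 of the 9 members. Sdha held 3 matches to the NRF1 motif in this window, 2 of them within the stretch shown, and no other member held any. Of 32536 RefSeq windows of the same length, 3.77% held at least 1. ACGTG was present before Sdha and before Ogdh and in 16.7% of all windows. A gene can have several windows, as Ogdh does, and a member was counted if any of its windows matched. The shares are of windows, so they are not on the same footing as the counts of members. AAGGTCA, bound by the estrogen-related receptor ESRRA, and CCGGAAG, bound by ETS factors, were in none of the 8 and in 4.09% and 6.95% of all windows. The matches in the stretch shown do not overlap each other. A match is a description of letters, and binding was not measured here.

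Levels are compared between genes only as CPM per kilobase of transcript. Sdhb or Mdh2 had the highest level per kilobase in every group, and Fh1 and then Ogdh the lowest. The ratio of the highest to the lowest member ran from 35.0 in WT on day 9 to 109.7 in KO with DMSO on day 7. In WT on day 4 the order was Sdhb, Mdh2, Sdha, Idh3a, Suclg1, Cs, Idh3b, Fh1 and Ogdh. It started from 959.6 CPM per kilobase for Sdhb, and Sdha and Idh3a differed by less than their spread. Idh3a moved most within this order. It was the third of the 9 on day 5 in both genotypes and the sixth on day 6 in both. Cs and Suclg1, neighbours in most groups, differed by less than their spread in WT on day 5, in both genotypes on day 6 and in KO on day 9. Over the 48 libraries, whose 3 tables were scaled apart, the level in CPM, not divided by length, ran from 285 to 653 for Cs, 295 to 708 for Idh3a, 109.9 to 169 for Idh3b, 36.0 to 100.2 for Ogdh, 224 to 325 for Suclg1, 511 to 846 for Sdha, 791 to 1225 for Sdhb, 92.7 to 194 for Fh1 and 544 to 1385 for Mdh2. The plot of members by group shows the 4 libraries of each.

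**Figure D1:**
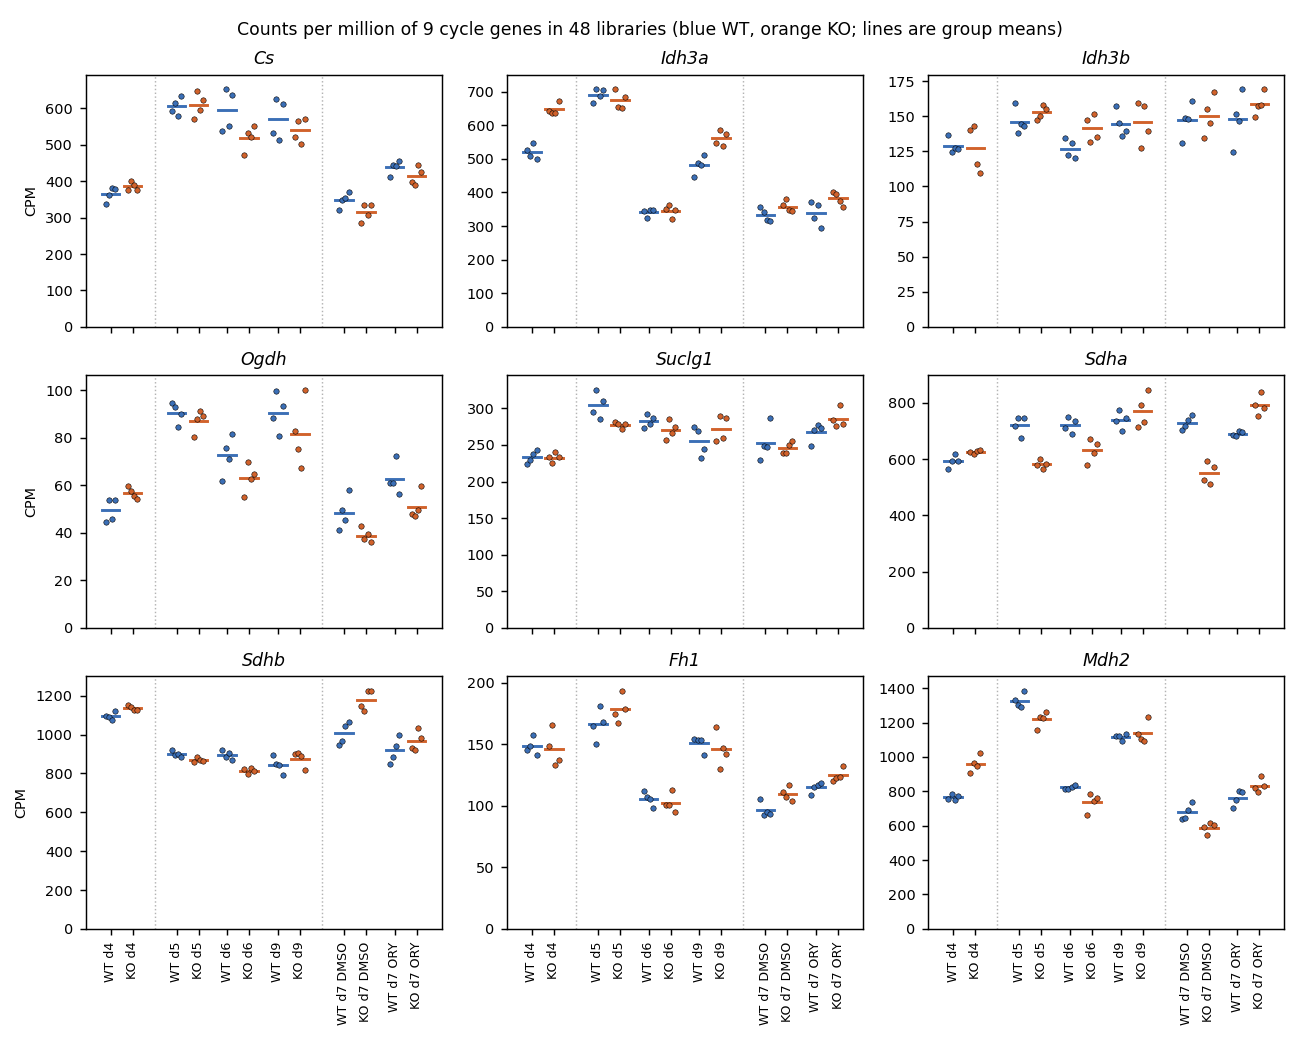
CPM (TMM-scaled, linear axes) of the 9 members in each of the 48 libraries, 1 panel a gene. Points are libraries, short lines are group means, blue is WT and orange KO, and dotted lines separate the 3 tables, which were normalized apart. Idh3a sits between 320.3 and 362 CPM on day 6 and between 652 and 708 on day 5.

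On day 4, the earliest time after the virus, 2 members were higher in KO than in WT, Idh3a and Mdh2, and none was lower. Idh3a was counted at 525, 509.5, 547 and 498 CPM in the 4 WT libraries. In the 4 KO libraries it was counted at 643, 636, 637 and 671. Mdh2 was counted at 754, 782, 747 and 775 CPM in WT and 909, 964, 947 and 1022 in KO. Every KO library lay above every WT library for both genes. In log2 fold change ± SE, with p-values of edgeR's quasi-likelihood test adjusted by Benjamini-Hochberg over all genes tested in the table and called under 0.05, Idh3a rose by 0.32 ± 0.05 (adjusted p = 0.000795) and Mdh2 by 0.33 ± 0.05 (adjusted p = 0.000352). Of all genes tested on day 4, 1.59% were called, 0.927% higher and 0.665% lower. The 7 other members did not pass, at -0.02 to 0.19, and Ogdh had the highest of these values, 0.19 ± 0.10, adjusted p = 0.423, with no overlap between the groups. The median of the 9 was 0.08 against -0.003 over all genes tested. Oligodendrocyte lineage markers summed to 207 to 222 CPM in WT and 144 to 172 in KO, with 1 of 3 called lower, and neural stem and radial glia markers to 11569 to 12123 and 11189 to 11526, with 1 of 9 called lower. The part of both lists in the result was not tested.

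On day 5 the 1 member called was Sdha, which was lower in KO, and a day later 4 members were lower, Cs, Sdha, Sdhb and Mdh2. Sdha was counted on day 5 at 716, 745, 675 and 745 CPM in WT and at 579.6, 602, 566 and 583 in KO, so the highest KO library stayed below the lowest WT library. Its mean fell from 720.3 ± 33.1 to 583 ± 14.8 CPM (SD, n = 4), or by 19.1%, with a log2 fold change of -0.31 ± 0.05 (adjusted p = 0.000108). The call held with libraries summed in pairs (-0.31, adjusted p = 0.0444). The other 8 members were at -0.13 to 0.10 and did not pass in edgeR's test, in which 15% of all genes were called on day 5, 6.21% higher and 8.76% lower. Across 12443 genes the difference between KO and WT on this day had a Spearman correlation of 0.371 with GC content. Mdh2, at -0.12 ± 0.05, adjusted p = 0.0676, came to -0.25, adjusted p = 0.00264 after a correction for GC content and length, which left Sdha at -0.30, adjusted p = 2.82e-05. Neuron markers summed to 561 to 610.1 CPM in WT and 492 to 511 in KO on this day, with 1 of the 2 tested called higher and 1 lower, and their part in the result was not tested.

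On day 6 Sdha was counted at 711, 749, 690.1 and 737 CPM in WT and 578, 672, 622 and 654 in KO. Sdhb was counted at 923, 887, 906 and 872 in WT and 822, 795, 827 and 813 in KO. Mdh2 was counted at 816, 816, 825 and 839 CPM in WT and 665, 784, 744 and 761 in KO. The KO libraries lay below the WT libraries for these 3 genes, and for Cs the groups overlapped. The falls were -0.19 ± 0.05 for Sdha (adjusted p = 0.0129), -0.14 ± 0.04 for Sdhb (adjusted p = 0.0248), -0.16 ± 0.05 for Mdh2 (adjusted p = 0.0216) and -0.19 ± 0.07 for Cs (adjusted p = 0.0454) in edgeR's test, where 13.1% of all genes were called, 6.69% higher and 6.45% lower. Each of these 4 calls was lost when some single library was left out. Sdha was no longer called without KO day 6 replicate 1 (-0.16, adjusted p = 0.0613). Mdh2 was lost without KO day 6 replicate 1 (-0.11, adjusted p = 0.111) or WT day 6 replicate 4 (-0.15, adjusted p = 0.051). Sdhb was lost without KO day 6 replicate 2 (-0.13, adjusted p = 0.0708), KO day 6 replicate 4 (-0.14, adjusted p = 0.0526) or WT day 6 replicate 1 (-0.13, adjusted p = 0.0668). For Cs this happened without KO day 6 replicate 1 (-0.16, adjusted p = 0.155), KO day 6 replicate 2 (-0.21, adjusted p = 0.0614), KO day 6 replicate 3 (-0.20, adjusted p = 0.0745), WT day 6 replicate 2 (-0.15, adjusted p = 0.164) or WT day 6 replicate 4 (-0.16, adjusted p = 0.143). With libraries summed in pairs none of the 9 was called. The correction for GC content and length moved Sdhb to -0.01, adjusted p = 0.923, Mdh2 to -0.05, adjusted p = 0.639 and Cs to -0.17, adjusted p = 0.0517. Of the 4, Sdha alone kept its call under this correction, and a member outside the 4 gained a call. With the replicate number as a block, Idh3b was also called, as higher in KO (0.16, adjusted p = 0.0483), a call not made with summed pairs (adjusted p = 0.476). Genes of dividing cells summed to 188 to 200.2 CPM in WT and 143 to 151 in KO on this day. Of the 6, 4 were called lower and none was at 0, and their part in the result was not tested.

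On day 9 a single member was called, Idh3a, which was higher in KO. It was counted at 445, 488, 482 and 510.3 CPM in WT and 547, 587, 539 and 574 in KO, without overlap, a change of 0.22 ± 0.05 (adjusted p = 0.00233). The 8 others were at -0.14 to 0.09, and 11.8% of all genes were called in edgeR's test, 6.34% higher and 5.43% lower. The direction of Sdha between the genotypes was thus lower in KO on days 5 and 6, and its values on days 4 and 9, 0.08 ± 0.05 and 0.06 ± 0.05, did not pass. With libraries summed in pairs the call of Idh3a on day 9 was lost (0.22, adjusted p = 0.135). Oligodendrocyte lineage markers summed to 87.5 to 102 CPM in WT and 137 to 166 in KO, with Sox10 at 0. Genes of dividing cells summed to 346 to 383 and 360.2 to 440.2. Neural stem and radial glia markers summed to 16787 to 17482 in WT and 16195 to 16658 in KO, with 1 of 9 called higher. The part of these lists was not tested.

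**Figure D2:**
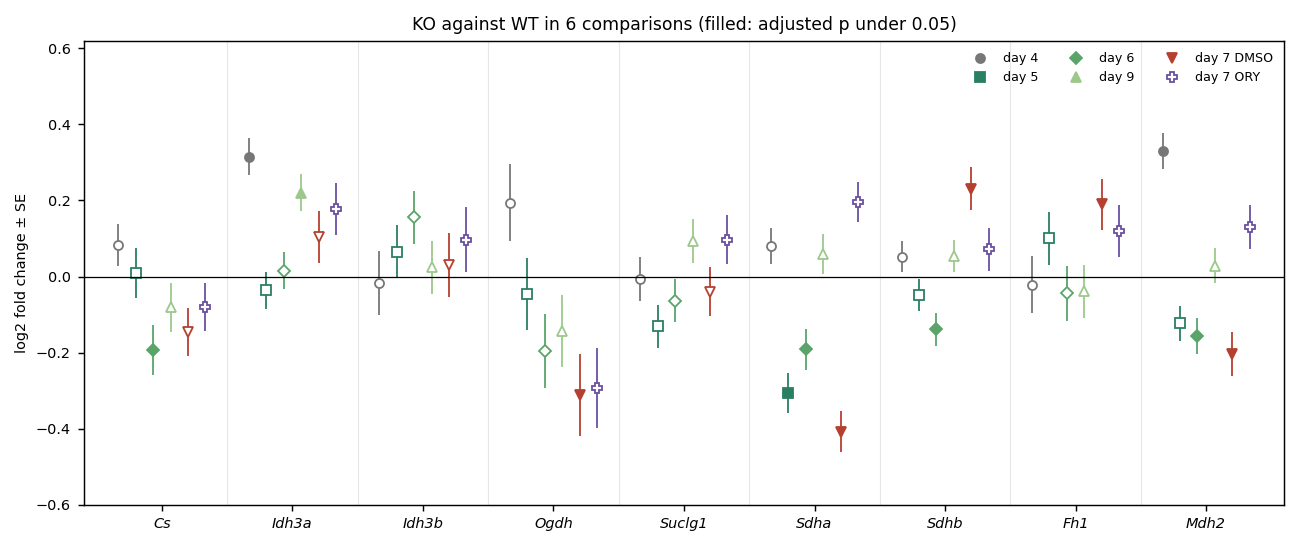
Log2 fold change of KO over WT ± SE for the 9 members on days 4, 5, 6 and 9 and on day 7 with DMSO and with ORY. Filled points passed adjusted p under 0.05 in edgeR's test. Sdha lies at -0.31 on day 5 and -0.41 with DMSO on day 7, and no point is filled with ORY.

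The largest fold changes of any member in the 16 comparisons were those between days in the quiescence medium. Each day was its own harvest, so time in the medium and harvest cannot be told apart in the comparisons of days. From day 5 to day 6, 5 of the 9 fell in WT and 5 fell in KO, and none rose in either. Idh3a changed most. In WT it was counted at 665, 708, 686 and 704 CPM on day 5 and 345, 324, 347 and 347 on day 6. In KO the values were 707, 654, 652 and 682 on day 5 and 349.9, 362, 320.3 and 348 on day 6. The 8 libraries of day 6 lay below the 8 of day 5, and the genotypes overlapped on both days. The log2 fold change was -1.02 ± 0.05 in WT (adjusted p = 9.31e-19) and -0.97 ± 0.05 in KO (adjusted p = 4.57e-18). Mdh2 went from 1327 ± 42.2 to 824 ± 10.9 CPM in WT and from 1218 ± 44.0 to 738 ± 51.7 in KO, without overlap, at -0.69 ± 0.05 and -0.72 ± 0.05 (adjusted p = 8.42e-15 and 2.53e-15). Fh1 was counted at 165, 151, 181 and 168 CPM on day 5 and 112, 108, 105 and 98.4 on day 6 in WT. In KO it was counted at 174, 167, 194 and 178 on day 5 and 100.5, 100.9, 113 and 94.7 on day 6. It fell by 0.66 ± 0.07 on the log2 scale in WT (adjusted p = 1.35e-09) and by 0.80 ± 0.07 in KO (adjusted p = 1.43e-11). Ogdh fell by less, -0.31 ± 0.10 in WT (adjusted p = 0.0075) and -0.46 ± 0.10 in KO (adjusted p = 0.000167). Idh3b was called in WT at -0.20 ± 0.07, adjusted p = 0.0169, but not without WT day 5 replicate 1 (-0.17, adjusted p = 0.0725) or WT day 6 replicate 4 (-0.18, adjusted p = 0.0557). Cs was called in KO at -0.23 ± 0.07, adjusted p = 0.0049. In edgeR's test 44.1% of all genes were called from day 5 to day 6 in WT and 43% in KO, with 21.5% and 21.4% higher and 22.6% and 21.5% lower. The members' medians were -0.20 and -0.23, and those of all genes 0.017 and 0.010.

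Sdha and Sdhb, the subunits of succinate dehydrogenase, and Suclg1 were not called from day 5 to day 6 in either genotype, and the uncalled members were at -0.11 to 0.00 in WT and -0.11 to 0.12 in KO. In KO, with the replicate number as a block, Sdha was called higher (0.12, adjusted p = 0.00776) and Sdhb lower (-0.094, adjusted p = 0.0199), and Sdha was also called without KO day 6 replicate 1 (0.15, adjusted p = 0.0262). Neither was called with summed pairs, where Sdha was at 0.13, adjusted p = 0.238. With libraries summed in pairs Idh3a, Fh1 and Mdh2 kept their calls in both genotypes and Ogdh in KO, while Idh3b and Ogdh in WT and Cs in KO lost theirs (-0.21, adjusted p = 0.124, -0.30, adjusted p = 0.0719 and -0.22, adjusted p = 0.104). Genes of dividing cells summed to 420.4 to 462 CPM in WT and 394 to 423 in KO on day 5 and to 188 to 200.2 and 143 to 151 on day 6, with 5 of 6 called lower in WT and 6 of 6 in KO. Those of the oligodendrocyte lineage summed to 83.7 to 97.0 CPM in WT and 81.6 to 97.1 in KO on day 5 and to 225 to 248 and 213 to 251 on day 6, with 2 of the 3 tested called higher in both and Sox10 at 0. Neural stem and radial glia markers summed to 17727 to 18341 CPM in WT and 17490.0 to 18004 in KO on day 5 and to 11798 to 12408 and 11946 to 12920.1 on day 6. Of the 9 tested, 3 were called higher and 4 lower in WT, and 3 higher and 5 lower in KO. Mitochondrially encoded and ribosomal RNA-like genes took 8.06% to 8.63% of the counts on day 5 and 11.3% to 12.4% on day 6, and without them Idh3a in WT was at -1.01, adjusted p = 1.07e-18. The part of these 3 marker lists in the result was not tested.

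From day 5 the changes of Idh3a, Mdh2 and Fh1 were smaller in size by day 9 than by day 6 in both genotypes, a difference that was not tested. In WT, 3 members were lower on day 9 than on day 5, Idh3a (-0.52 ± 0.05, adjusted p = 6.62e-10), Suclg1 (-0.26 ± 0.06, adjusted p = 0.000989) and Mdh2 (-0.25 ± 0.05, adjusted p = 0.000104), where edgeR's test called 22.7% of all genes, 11.3% higher and 11.4% lower. Suclg1 was counted at 295, 325, 286 and 311 CPM on day 5 and 275, 269, 232 and 244 on day 9 in WT, with every later library below every earlier one. In KO, 3 members were lower, Idh3a (-0.26 ± 0.05, adjusted p = 9.52e-05), Fh1 (-0.28 ± 0.07, adjusted p = 0.00267) and Cs (-0.18 ± 0.07, adjusted p = 0.0473), and Sdha was higher. Of all genes 24.4% were called in KO, 13.4% higher and 11% lower. Sdha in KO rose from 579.6, 602, 566 and 583 CPM on day 5 to 713, 792, 733 and 846 on day 9, without overlap, at 0.40 ± 0.05, adjusted p = 3.95e-07. In WT it was counted at 720.3 ± 33.1 CPM on day 5 and 739 ± 31.0 on day 9, a change of 0.04 ± 0.05 that did not pass (adjusted p = 0.659). The groups overlapped for Cs, whose call was lost without KO day 5 replicate 2 (-0.14, adjusted p = 0.156), KO day 5 replicate 3 (-0.19, adjusted p = 0.062), KO day 5 replicate 4 (-0.17, adjusted p = 0.104), KO day 9 replicate 1 (-0.15, adjusted p = 0.128) or KO day 9 replicate 3 (-0.15, adjusted p = 0.152). With libraries summed in pairs Sdha and Idh3a kept their calls in KO (0.42, adjusted p = 0.00242 and -0.26, adjusted p = 0.0262). Fh1 and Cs lost theirs (-0.29, adjusted p = 0.0685 and -0.17, adjusted p = 0.308). Cs was also lost with DESeq2 (-0.17, adjusted p = 0.066) and with the correction for GC content and length (-0.14, adjusted p = 0.0999). With the replicate number as a block Sdhb was called lower in WT (-0.092, adjusted p = 0.0354), but not with summed pairs. Across genes the change in KO from day 5 to day 9 had a Spearman correlation of -0.379 with GC content, and after the correction for GC content and length Sdha in KO stood at 0.39, adjusted p = 9.11e-08. Genes of dividing cells summed to 420.4 to 462 CPM on day 5 and 346 to 383 on day 9 in WT, with 4 of 6 called lower. In KO they summed to 394 to 423 and 360.2 to 440.2, with 0 of 6 called. Those of the oligodendrocyte lineage summed to 81.6 to 97.1 and 137 to 166 in KO, with 2 of 3 called higher, and to 83.7 to 97.0 and 87.5 to 102 in WT, with 1 of 3 called higher. Neural stem and radial glia markers summed to 17490.0 to 18004 on day 5 and 16195 to 16658 on day 9 in KO, with 1 of 9 called higher and 4 lower, and to 17727 to 18341 and 16787 to 17482 in WT, with 2 higher and 1 lower. The part of these lists in the result was not tested.

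Whether the genotypes differed in their change over time was tested as an interaction, the log2 change in KO minus that in WT. From day 5 to day 6 no member was called in edgeR's test, with 12.6% of all genes called, 7.48% higher and 5.12% lower. The values were -0.20 to 0.11, and 1 member, Cs, had an unadjusted p under 0.05 (-0.20 ± 0.09, adjusted p = 0.153). DESeq2, limma-voom and the fit of summed pairs also called 0 of the 9. Across genes this interaction had a Spearman correlation of -0.381 with GC content. With the replicate block and the correction for GC content and length together, 3 of the 9 were called, beside 11.4% of all genes. With the replicate number as a block Cs was called (-0.20, adjusted p = 0.0105), where summed pairs gave -0.18, adjusted p = 0.578. Of the 6 dividing-cell genes, 4 were called as more negative in KO over this interval. From day 5 to day 9 the change was more positive in KO for Sdha (0.37 ± 0.07, adjusted p = 0.00141) and Idh3a (0.26 ± 0.07, adjusted p = 0.0142), with 9.22% of all genes called, 5.99% higher and 3.23% lower. Both calls were lost with libraries summed in pairs, at 0.39, adjusted p = 0.12 and 0.27, adjusted p = 0.239. Across genes this interaction had a Spearman correlation of -0.364 with GC content. With the correction for GC content and length 4 members were called, Sdha and Idh3a among them, beside 5.39% of all genes. Over all alternative fits Mdh2, not called in the main fit, ran from 0.12 to 0.32, and Sdhb, also not called, from 0.07 to 0.25. Of the 3 oligodendrocyte lineage genes tested, 1 was called as more positive in KO here, and of the 6 dividing-cell genes none. Suclg1 (0.22 ± 0.08, adjusted p = 0.0772) passed without KO day 9 replicate 1 (0.26, adjusted p = 0.0383) or WT day 9 replicate 1 (0.27, adjusted p = 0.0355). From day 6 to day 9 the change was more positive in KO for the succinate dehydrogenase subunits Sdha (0.25 ± 0.07, adjusted p = 0.0311) and Sdhb (0.19 ± 0.06, adjusted p = 0.0398), with 7.81% of all genes called, 3.86% higher and 3.95% lower. Both calls were lost when some single library was left out. Sdha was lost without KO day 6 replicate 1 (0.22, adjusted p = 0.0692), WT day 6 replicate 2 (0.24, adjusted p = 0.0567), WT day 6 replicate 4 (0.25, adjusted p = 0.0504), KO day 9 replicate 4 (0.21, adjusted p = 0.077) or WT day 9 replicate 3 (0.23, adjusted p = 0.0653). For Sdhb this was so without KO day 6 replicate 2 (0.19, adjusted p = 0.0677), KO day 6 replicate 4 (0.20, adjusted p = 0.0547), WT day 6 replicate 1 (0.19, adjusted p = 0.0697), WT day 6 replicate 3 (0.20, adjusted p = 0.0566), KO day 9 replicate 1 (0.19, adjusted p = 0.066), KO day 9 replicate 2 (0.18, adjusted p = 0.0634), KO day 9 replicate 3 (0.19, adjusted p = 0.063), WT day 9 replicate 3 (0.20, adjusted p = 0.0531) or WT day 9 replicate 4 (0.17, adjusted p = 0.0842). Idh3a passed without KO day 6 replicate 2 (0.23, adjusted p = 0.0442), WT day 6 replicate 2 (0.24, adjusted p = 0.045) or WT day 9 replicate 4 (0.24, adjusted p = 0.037). Mdh2 passed without KO day 6 replicate 2 (0.22, adjusted p = 0.0419). Summed in pairs, none of the 9 passed from day 6 to day 9. The correction for GC content and length took Sdhb to 0.10, adjusted p = 0.351. Over the same interval 4 of the 6 dividing-cell genes and 1 of the 3 oligodendrocyte lineage genes were called as more positive in KO, and of the 9 neural stem and radial glia genes 1 as more positive and 1 as more negative. The part of these genes in the interactions was not tested. The comparisons of days 5, 6 and 9 share their groups, so these values are not independent of those above.

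**Figure D3:**
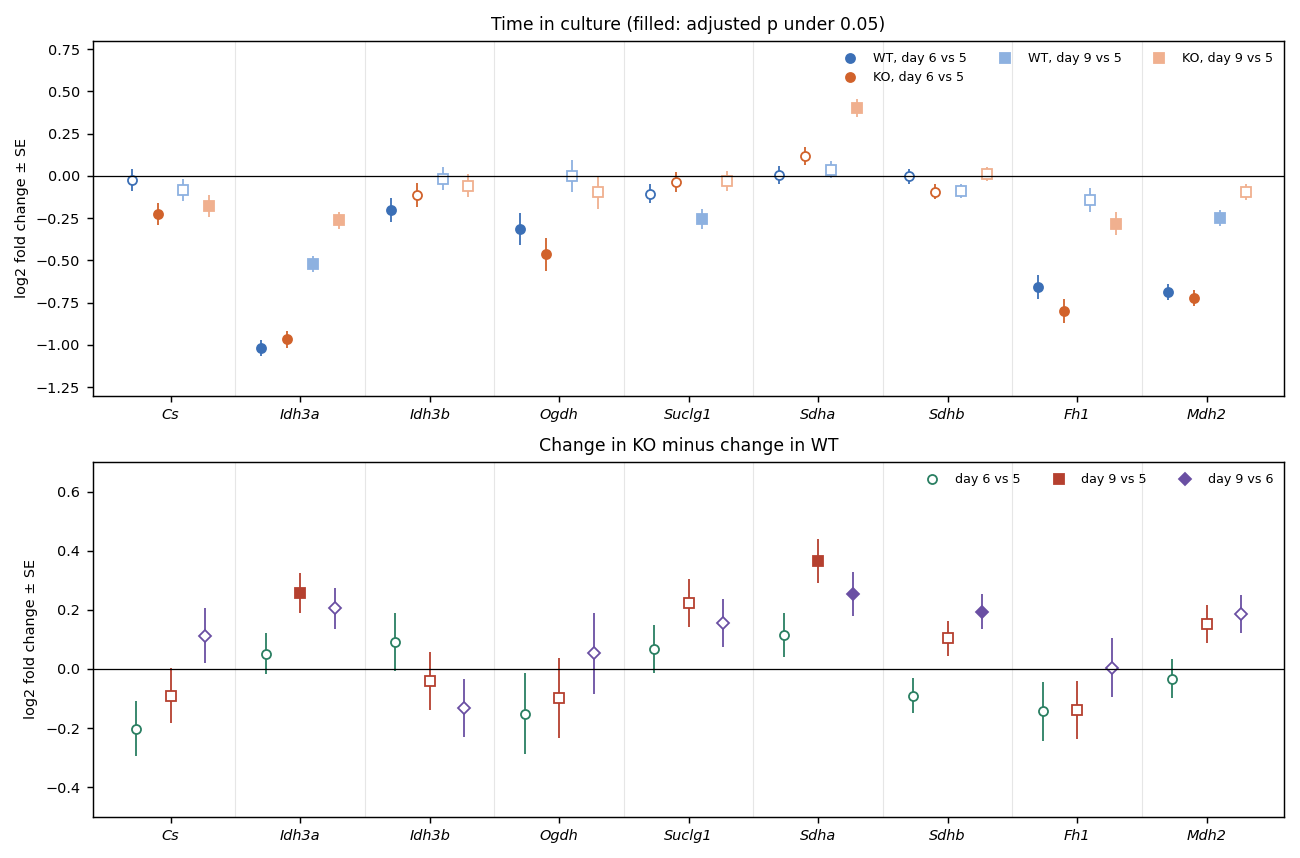
Upper: log2 change ± SE of the 9 members from day 5 to day 6 and to day 9 in WT and in KO. Lower: the interaction, the change in KO minus that in WT, on the same log2 scale. Filled points passed adjusted p under 0.05 in edgeR's test. Idh3a reaches -1.02 in WT and -0.97 in KO on day 6, and Sdha in KO stands at 0.40 on day 9.

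On day 7 with DMSO, the control of the inhibitor experiment, 3 members were lower in KO than in WT, Sdha, Mdh2 and Ogdh, and 2 were higher, Sdhb and Fh1. Sdha was counted at 704, 718, 739 and 758 CPM in WT and 524, 592, 511 and 574 in KO, with means of 729.7 ± 23.7 and 550.1 ± 39.1 (SD, n = 4), so that it fell by 24.6%. Mdh2 was counted at 639, 648, 690.0 and 736 CPM in WT and 591, 544, 616 and 603 in KO. The KO libraries lay below the WT libraries for both. Sdhb went the other way, with 947, 966, 1046 and 1062 CPM in WT and 1147, 1124, 1225 and 1223 in KO and no overlap. The mRNAs of the flavoprotein and of the iron-sulfur subunit of the same enzyme thus changed in opposite directions. Protein was not measured here. The log2 fold changes were -0.41 ± 0.05 for Sdha (adjusted p = 1.04e-06), -0.20 ± 0.06 for Mdh2 (adjusted p = 0.00758) and 0.23 ± 0.06 for Sdhb (adjusted p = 0.00217). Ogdh (-0.31 ± 0.11, adjusted p = 0.0255) and Fh1 (0.19 ± 0.07, adjusted p = 0.0291) were called with overlapping groups. In edgeR's test 36% of all genes were called, 16.9% higher and 19.1% lower, against which 5 of the 9 members is to be read.

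The scaling of the libraries bears on these values. With scaling by library size alone the median of all genes was -0.119 in this comparison, where TMM gave -0.0151. Sdha was then at -0.51, adjusted p = 3.57e-08 and Mdh2 at -0.31, adjusted p = 0.000232. Sdhb and Fh1 were at 0.13, adjusted p = 0.1 and 0.09, adjusted p = 0.33, no longer called. With the correction for GC content and length Sdha stayed at -0.34, adjusted p = 5e-07 and Sdhb at 0.32, adjusted p = 7.75e-08, while Mdh2 (-0.06, adjusted p = 0.286) and Ogdh (-0.21, adjusted p = 0.096) lost their calls. Ogdh was also lost without WT DMSO replicate 2 (-0.29, adjusted p = 0.0649), WT DMSO replicate 4 (-0.23, adjusted p = 0.108), KO DMSO replicate 2 (-0.29, adjusted p = 0.0691) or KO DMSO replicate 4 (-0.28, adjusted p = 0.0677). Fh1 was lost without WT DMSO replicate 2 (0.17, adjusted p = 0.0878), WT DMSO replicate 3 (0.18, adjusted p = 0.0639), WT DMSO replicate 4 (0.18, adjusted p = 0.0636), KO DMSO replicate 1 (0.18, adjusted p = 0.0611) or KO DMSO replicate 3 (0.16, adjusted p = 0.0937). Cs (-0.14 ± 0.06, adjusted p = 0.0754) passed without WT DMSO replicate 1 (-0.18, adjusted p = 0.0322). Oligodendrocyte lineage markers summed to 176 to 199 CPM in WT and 327 to 362 in KO, with Sox10 at 0 and 1 of the 3 tested called higher. Genes of dividing cells summed to 138 to 151 CPM in WT and 149.6 to 179.6 in KO, with 2 of 6 called higher. Neural stem and radial glia markers summed to 11135 to 12477 CPM in WT and 14778 to 15905 in KO, without overlap, and of the 9 tested 5 were called higher and 3 lower. The part of these lists in the result was not tested.

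With ORY, no member was called between KO and WT on day 7 in edgeR's test, which called 1.15% of all genes, 0.561% higher and 0.594% lower. The 9 values were -0.29 to 0.20, and 4 had an unadjusted p under 0.05. Sdha, lower in KO with DMSO, was counted with ORY at 684, 683, 699.9 and 695 CPM in WT and 793, 752, 839 and 781 in KO, or 0.20 ± 0.05, adjusted p = 0.0674, and the groups did not overlap. DESeq2 called this gene, at 0.20, adjusted p = 0.0118, and no other member. The most negative value was that of Ogdh, -0.29 ± 0.11, adjusted p = 0.173. Idh3a stood at 0.18 ± 0.07, adjusted p = 0.207, and Mdh2 at 0.13 ± 0.06, adjusted p = 0.296. With the correction for GC content and length Sdha and Mdh2 passed, at 0.20, adjusted p = 0.0117 and 0.21, adjusted p = 0.00771.

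Treatment with ORY changed 7 of the 9 members in KO, 6 of them upward. Sdha rose from 524, 592, 511 and 574 CPM with DMSO to 793, 752, 839 and 781 with ORY, or by 43.8%. Mdh2 rose from 591, 544, 616 and 603 to 821, 794, 892 and 828, or by 41.7%. No DMSO library of KO reached the lowest ORY library for either gene. The log2 fold changes were 0.52 ± 0.05 (adjusted p = 1.28e-08) and 0.50 ± 0.06 (adjusted p = 1.27e-07). Cs was counted at 285, 333, 307 and 334 CPM with DMSO and 398, 390.2, 444 and 425 with ORY, at 0.40 ± 0.06, adjusted p = 1.48e-05. Ogdh rose from 42.9, 37.2, 39.4 and 36.0 to 48.04, 47.2, 49.4 and 59.6 CPM, at 0.39 ± 0.11, adjusted p = 0.00531. Suclg1 (0.22 ± 0.06, adjusted p = 0.00892) and Fh1 (0.18 ± 0.07, adjusted p = 0.0312) rose by less. Fh1 was not called without KO DMSO replicate 2 (0.17, adjusted p = 0.0777), KO DMSO replicate 4 (0.16, adjusted p = 0.0895) or KO ORY replicate 4 (0.15, adjusted p = 0.131) or with the correction for GC content and length (0.09, adjusted p = 0.232). Sdhb was the member that fell, from 1147, 1124, 1225 and 1223 to 931, 920.4, 1031 and 983 CPM, at -0.29 ± 0.06, adjusted p = 0.000213. Idh3a and Idh3b, at 0.08 to 0.09, did not pass. In edgeR's test 38.7% of all genes were called, 20.3% higher and 18.3% lower, and the members' median was 0.22 against -0.00012 over all genes. Oligodendrocyte lineage markers summed to 327 to 362 CPM with DMSO and 322 to 358 with ORY, ranges that overlap, as did those of dividing-cell genes, 149.6 to 179.6 and 155 to 176. Neural stem and radial glia markers summed to 14778 to 15905 CPM with DMSO and 10983 to 12119.9 with ORY, without overlap, and of the 9 tested 3 were called higher and 5 lower. Their part in the result was not tested.

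In WT, ORY raised 3 members, Cs, Ogdh and Fh1, and lowered none, where 15.1% of all genes were called, 8.16% higher and 6.91% lower. Cs was counted at 319.9, 349, 353 and 369.9 CPM with DMSO and 412, 443, 442 and 454 with ORY, without overlap, at 0.33 ± 0.06, adjusted p = 0.000634. Fh1 was counted at 105, 92.7, 94.6 and 93.4 and 109, 115, 117 and 119 CPM, without overlap, at 0.25 ± 0.07, adjusted p = 0.0111. Ogdh, whose groups overlapped, was at 0.37 ± 0.11, adjusted p = 0.0161 in edgeR's test and was lost without WT DMSO replicate 1 (0.31, adjusted p = 0.0638) or WT ORY replicate 3 (0.30, adjusted p = 0.0865). Sdha, at -0.08 ± 0.05, and Mdh2, at 0.17 ± 0.06, did not pass (adjusted p = 0.345 and 0.0526). Mdh2 passed without WT DMSO replicate 4 (0.21, adjusted p = 0.019) or WT ORY replicate 1 (0.20, adjusted p = 0.0194). Genes of dividing cells summed to 138 to 151 CPM with DMSO and 157 to 183 with ORY, 3 of 6 called higher. Oligodendrocyte lineage markers summed to 176 to 199 and 229.8 to 263, with 1 of 3 called higher. Neural stem and radial glia markers summed to 11135 to 12477 and 11109 to 12191, ranges that overlap, with 4 of 9 called higher and 4 lower. The part of these lists was not tested.

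The response to ORY differed between the genotypes for 2 members, tested as the log2 change in KO minus that in WT. It was more positive in KO by 0.60 ± 0.08 for Sdha (adjusted p = 1.97e-06) and by 0.33 ± 0.08 for Mdh2 (adjusted p = 0.00529), where edgeR's test called 17.9% of all genes tested, 10% as more positive and 7.86% as more negative in KO. Both calls held in every alternative fit that was run on day 7, including each fit without a single library, with Sdha between 0.53 and 0.66. A fit with libraries summed in pairs was not run for day 7. For Cs, Ogdh and Fh1, which rose in both genotypes, the interaction was 0.07 ± 0.09, 0.02 ± 0.15 and -0.07 ± 0.10, not called. Sdhb, which fell in KO, had an interaction of -0.16 ± 0.08, adjusted p = 0.181 and was at -0.13 ± 0.06 in WT. The 4 groups of day 7 are shared by these 5 comparisons. For Sdha the group means were 729.7 CPM in WT with DMSO, 690.5 in WT with ORY, 550.1 in KO with DMSO and 791 in KO with ORY. For Mdh2 they were 678, 761, 588 and 834 in the same order. KO with DMSO was lowest for both and KO with ORY highest. Of the 9 neural stem and radial glia genes, 1 was called as more positive and 4 as more negative in KO in the same interaction, and their part in it was not tested. The NRF1 motif, found 3 times before Sdha, was not found before Mdh2, and its part in the response to ORY was not tested.

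**Figure D4:**
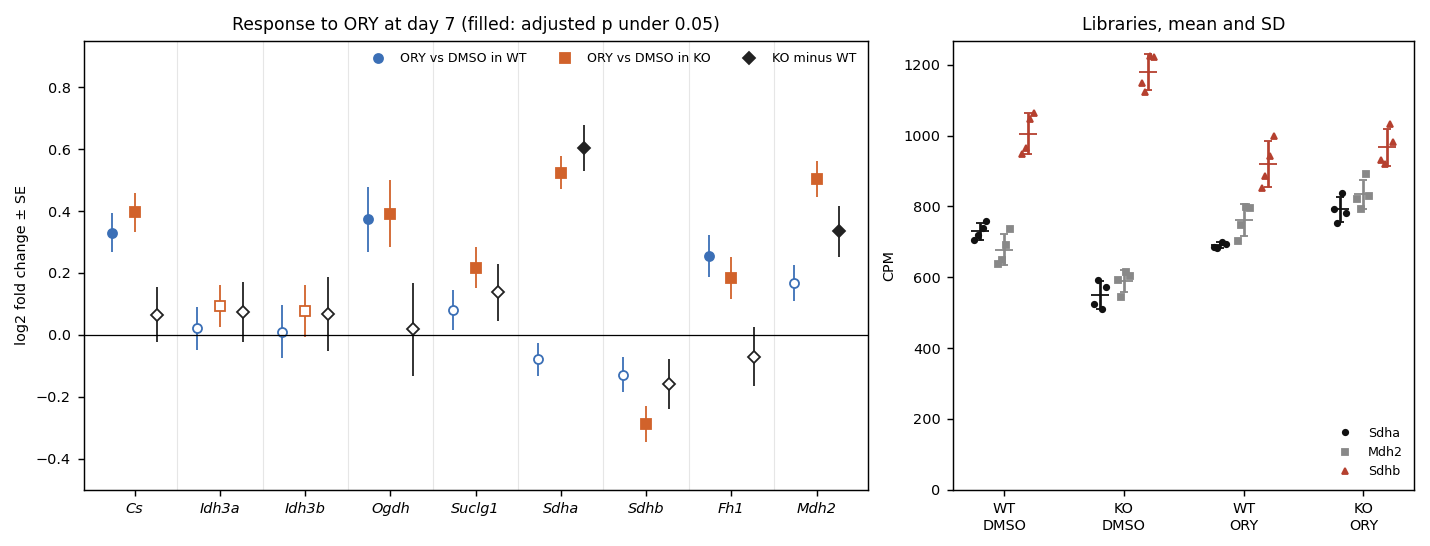
Left: log2 change ± SE with ORY over DMSO on day 7 in WT and in KO, and their interaction, for the 9 members, with points filled where adjusted p was under 0.05. Right: CPM of Sdha, Mdh2 and Sdhb in the 4 libraries of each day 7 group, with mean ± SD. Sdha has means of 550.1 CPM in KO with DMSO and 791 in KO with ORY.

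The remaining genes of the cycle, 12 by a list that holds the partners of the members in their complexes and the assembly factors of succinate dehydrogenase, were followed beside the 9. Of these, 11 were tested. On day 6 none was higher in KO and 3 were lower, where 13.1% of all genes were called, with a median of -0.11 over the 11 against 0.001 over all genes. The 3 were Sdhaf4, an assembly factor of succinate dehydrogenase, (-0.46 ± 0.06, adjusted p = 2.91e-06), Sdhc, a membrane anchor of that enzyme, (-0.30 ± 0.06, adjusted p = 0.000908) and Idh3g, the gamma subunit of the NAD-dependent isocitrate dehydrogenase, (-0.21 ± 0.06, adjusted p = 0.0157). On day 5, Sdhaf3, another assembly factor of succinate dehydrogenase, was lower in KO (-0.61 ± 0.13, adjusted p = 0.00169), as it was on day 9 (-0.58 ± 0.13, adjusted p = 0.00281). From day 5 to day 6, 3 of the 11 rose and 4 fell in WT, and 2 rose and 5 fell in KO, where 44.1% and 43% of all genes were called. Dlst, the transferase of the 2-oxoglutarate dehydrogenase complex, fell in both, (-0.36 ± 0.11, adjusted p = 0.00565) in WT and (-0.68 ± 0.11, adjusted p = 2.25e-06) in KO, as its partner Ogdh did. None of the 11 was called in the interaction over this interval. On day 7 with DMSO, 3 of the 11 were higher in KO and 3 lower, beside 36% of all genes called. The membrane anchors of succinate dehydrogenase were lower, Sdhc (-0.26 ± 0.06, adjusted p = 0.00165) and Sdhd (-0.32 ± 0.06, adjusted p = 0.00018), along with Sdha, while Dld, the dihydrolipoamide dehydrogenase shared by the 2-oxo acid dehydrogenases, was higher (0.36 ± 0.10, adjusted p = 0.00531). With ORY in KO, 5 of the 11 rose and 3 fell, beside 38.7% of all genes called, with a median of -0.131. Dlst (0.46 ± 0.09, adjusted p = 0.000116), Sdhd (0.40 ± 0.06, adjusted p = 8.32e-06) and Sdhc (0.37 ± 0.06, adjusted p = 2.58e-05) rose most, and Sdhaf3 (-0.52 ± 0.12, adjusted p = 0.00118) fell most. In WT, 1 rose, Dlst (0.36 ± 0.09, adjusted p = 0.00527), and 2 fell, beside 15.1% of all genes called. On day 4 and between the genotypes with ORY on day 7 none of the 11 was called.

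Pyruvate entry was followed with 13 tested genes of 14. Pdk1, a kinase that switches pyruvate dehydrogenase off, was lower in KO on day 4 (-0.44 ± 0.11, adjusted p = 0.0317), on day 5 (-0.31 ± 0.07, adjusted p = 0.00401) and on day 9 (-0.34 ± 0.07, adjusted p = 0.00172), and higher in KO on day 6 (0.78 ± 0.08, adjusted p = 7.98e-09). From day 5 to day 6 it fell in WT (-0.99 ± 0.08, adjusted p = 2.69e-13), a change that differed from that in KO by 1.08 ± 0.11 (adjusted p = 7.28e-09). Pcx, the pyruvate carboxylase that supplies oxaloacetate, rose from day 5 to day 6 in WT (1.58 ± 0.19, adjusted p = 1.97e-08) and KO (1.15 ± 0.19, adjusted p = 7.78e-06), as did Pdp1, a phosphatase that switches pyruvate dehydrogenase on, (1.28 ± 0.11, adjusted p = 1.84e-12) and (0.80 ± 0.10, adjusted p = 2.01e-08). On day 7, Pdha1, the alpha subunit of pyruvate dehydrogenase, was lower in KO with DMSO (-0.47 ± 0.07, adjusted p = 3.42e-06), rose with ORY in KO (0.75 ± 0.07, adjusted p = 9.2e-10), and did so by more than in WT (0.57 ± 0.09, adjusted p = 7.86e-05). Of the 13, 2 were higher and 3 lower in KO with DMSO, and 4 rose and 3 fell with ORY in KO, where 36% and 38.7% of all genes were called.

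Among 20 genes of side reactions and carriers, of which 19 were tested on these days, 3 rose and 12 fell from day 5 to day 6 in WT, and 3 rose and 12 fell in KO, where 44.1% and 43% of all genes were called. The largest falls were those of Acly, which splits citrate in the cytosol for lipid synthesis, (-1.54 ± 0.08, adjusted p = 4.56e-18) in WT and (-1.37 ± 0.08, adjusted p = 1.92e-16) in KO, of the malic enzyme Me2, (-1.14 ± 0.11, adjusted p = 6.58e-11) and (-1.37 ± 0.11, adjusted p = 1.12e-12), and of the cytosolic aspartate transaminase Got1, (-1.04 ± 0.09, adjusted p = 1.07e-11) and (-1.20 ± 0.10, adjusted p = 7.5e-13). Idh2, the NADP-dependent mitochondrial isocitrate dehydrogenase, rose (0.96 ± 0.07, adjusted p = 1.12e-14) in WT and (1.23 ± 0.06, adjusted p = 7.56e-18) in KO over the interval in which Idh3a fell. On day 7 with DMSO, Slc25a1, the citrate carrier of the inner membrane, (-0.98 ± 0.19, adjusted p = 0.000146) and Got2, the mitochondrial aspartate transaminase, (-0.56 ± 0.11, adjusted p = 0.000238) were lower in KO, and Glud1, glutamate dehydrogenase, (0.45 ± 0.05, adjusted p = 4.51e-08) and Me2 (0.64 ± 0.15, adjusted p = 0.00119) were higher. With ORY in KO, Slc25a1 (1.27 ± 0.19, adjusted p = 4.04e-06), Got2 (0.98 ± 0.11, adjusted p = 4.98e-08) and Aco1, the cytosolic aconitase, (0.87 ± 0.09, adjusted p = 1e-08) rose, and Glud1 fell (-0.33 ± 0.05, adjusted p = 5.8e-06), with 7 of the list up and 3 down beside 38.7% of all genes called. Mdh1, the cytosolic counterpart of Mdh2, was higher in KO on day 4 (0.23 ± 0.04, adjusted p = 0.00201) and on day 7 with ORY (0.20 ± 0.05, adjusted p = 0.0255).

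**Figure D5:**
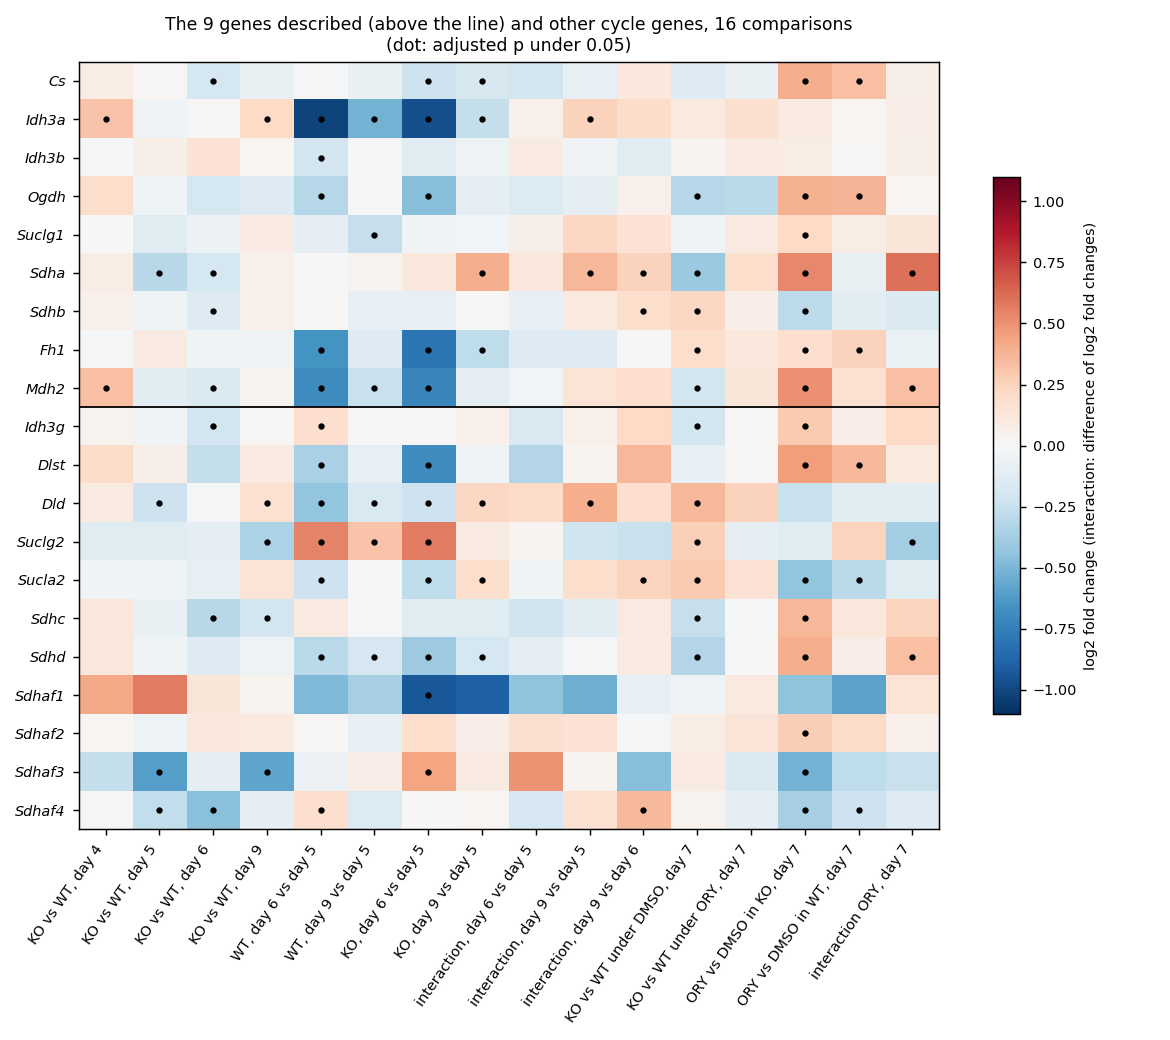
Log2 fold change (colour scale) of the 9 members and the 11 other cycle genes tested, 1 row a gene, in the 16 comparisons, 1 column each. Dots mark adjusted p under 0.05 in edgeR's test. Dlst has -0.68 in the column of KO from day 5 to day 6, and no gene has a dot in the interaction over that interval.

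Across the 16 comparisons, 46 of 144 pairs of member and comparison were called, where the share of all genes called ran from 1.15% to 44.1% by comparison. Of these 6 were interactions, and in the others the groups did not overlap in 35 and overlapped in 5. How often the groups of any called gene do not overlap was not counted, so this number has no background to be read against. Mdh2 and Sdha were called in 8 comparisons each, Idh3a in 7 and Fh1 in 6, while Idh3b was called in 1 comparison and Suclg1 in 2. The 9 did not move as a block. Over the 12 group means, centred within each table, the Pearson correlation of a member with the mean of the 8 others was 0.987 for Mdh2, 0.848 for Fh1, 0.798 for Idh3a and 0.755 for Ogdh. It was 0.589 for Idh3b, 0.556 for Cs, 0.449 for Suclg1, 0.217 for Sdha and -0.191 for Sdhb. These points share libraries and are given as a description. Within groups, over the deviations of 48 libraries from their group means, Cs and Sdha moved together most (0.773), followed by Suclg1 and Sdha (0.665). Idh3a moved against Sdhb (-0.690) and Idh3b (-0.644). These values share the depth and base composition of each library. Other genes were compared with the mean of the members if tested in all 3 tables with a mean log2 CPM of at least 3 in each. Among these 7490 genes, the 5 whose 12 group means were most like it were Nup93 (r = 0.991), Elovl5 (0.986), Nutf2 (0.980), Pdia6 (0.977) and Slc5a3 (0.975).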

How the data were processed

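RNA was measured in 48 libraries of cultured dentate gyrus neural stem cells, 12 groups of 4. The authors deposited counts of reads per gene in 3 tables (day 4, days 5, 6 and 9, and day 7), made with bcl2fastq 2.17.1.14, Trimmomatic 0.32 and STAR 2.5.2a from reads aligned uniquely to GRCm38 and counted without strand. Each table lists 39017 genes, of which 37693 have a GENCODE vM21 entry. The rest held no more than 0.202% of any library's counts. No column of the tables was left unused. Each table was fitted separately with edgeR 4.0.16 in R 4.3.3, as a quasi-likelihood model with 1 mean per group, TMM scaling and filterByExpr (minimum count 10, minimum total 15), which tested 11430, 12549 and 11952 genes. P-values were adjusted by Benjamini-Hochberg over all genes tested and called under 0.05, and a standard error is the log2 fold change divided by the square root of F. Log2 CPM used a prior count of 2. The fits were tested on simulated data.

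The members and gene lists were chosen with earlier results of these data known. All 9 members are named, with up to 3 genes per list, direction and comparison of largest fold change among those called. A gene of the cycle is not reported here. The replicate numbers of the labels were checked as pairs by correlating deviations from group means between libraries of the same number, over genes with a mean log2 CPM of at least 4. All 4 pairs were over 0.1 for KO against WT at day 6 (r of 0.171 to 0.245) and at day 9 (r of 0.157 to 0.344), for KO with ORY against DMSO (r of 0.129 to 0.274), for WT at day 6 (r of 0.173 to 0.195) and day 9 (r of 0.103 to 0.236) against day 5, and for KO at day 6 against day 5 (r of 0.143 to 0.208). There the numbers were taken to pair the libraries from the data, since the labels do not say what they mark, and the likeness of odd and even libraries gives such correlations too. Alternatives were scaling by RLE or library size alone, other filters, DESeq2 1.42.0, limma-voom (limma 3.58.1), the replicate number as a block, an offset for GC content and length, the compared groups alone, and leaving out each library in turn. Summed libraries were an alternative on days 5, 6 and 9 only.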

Additional observations from a re-analysis of the deposited data

Results flagged for a closer look

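The 6 interactions called between the genotypes were tested in edgeR as a log2 change in KO minus that in WT. From day 5 to day 9 it was 0.26 for Idh3a (adjusted p = 0.0142) and 0.37 for Sdha (adjusted p = 0.00141). From day 6 to day 9 it was 0.25 for Sdha (adjusted p = 0.0311) and 0.19 for Sdhb (adjusted p = 0.0398). For ORY on day 7 it was 0.60 for Sdha (adjusted p = 1.97e-06) and 0.33 for Mdh2 (adjusted p = 0.00529).

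In 3 of 108 combinations of member and group, 1 library lay far from the other 3 by Dixon's ratio of gap to range. These were Idh3a in WT on day 6 (0.894, with 324 CPM in 1 library and 345 to 347 in the others), Fh1 in WT on day 9 (0.950) and Fh1 in WT with DMSO on day 7 (0.851, with 105 CPM in 1 library and 92.7 to 94.6 in the others). Chance picks out about 1 in 20 groups in this way.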

How the results depend on the processing

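Of the 46 calls, 26 held in every alternative, 20 were lost in at least 1, and none changed sign. The value of Idh3a under DMSO, not called, went from 0.10 to -0.00019 with library size only. The number of the 9 members called between KO and WT on day 5 was 1, and 2 with RLE size factors, DESeq2, limma-voom or only the groups compared, 3 with the replicate block or the GC and length offset, and 4 with both. Of all genes, 15% were called that day. RLE size factors called 15.1%, DESeq2 15.9%, limma-voom 14.8% and only the groups compared 19.8%. The block called 20%, the offset 11.6% and both 16.4%. On day 6 the number of members was 4, and 2 with the GC and length offset or only the groups compared and 0 with summed libraries, which also gave 0 against 1 on day 9, 3 against 5 for WT from day 5 to day 6 and 2 against 4 for KO from day 5 to day 9. Of the 2 called with the offset on day 6, 1 was Sdha and the other a member not called in the main fit. Of all genes on day 6 the offset called 11% and only the groups compared 13.1%, beside 13.1%. Summed libraries called 1.54% on day 6 and 1% on day 9. They called 26.8% for WT from day 5 to day 6 and 8.93% for KO from day 5 to day 9. The interaction from day 5 to day 6 had 0 members called, and 1 with the block and 3 with block and offset, where 12.6%, 17.6% and 11.4% of all genes were called. That from day 5 to day 9 had 2 members called, and 4 with the block or the offset, 5 with both and 0 with summed libraries. Of all genes 9.22% were called over this interval, and 14.1% with the block, 5.39% with the offset, 9.92% with both and 0.284% with summed libraries. The interaction from day 6 to day 9 had 2 members called, and 1 with library size only or no filter, 4 with DESeq2, limma-voom or the block, and 0 with only the groups compared or summed libraries. Of all genes 7.81% were called here, and 7.89% with library size only and 4.16% with no filter. DESeq2 called 10.1%, limma-voom 8.72%, the block 12.3%, only the groups compared 6.07% and summed libraries 0.356%. Between KO and WT with ORY the number of members was 0, and 1 with DESeq2, 2 with the offset, 3 with the block and 4 with both. The shares of all genes were 1.15%, and 3.09% with DESeq2, 3.31% with the offset, 6.86% with the block and 6.12% with both. For ORY in WT 3 members were called, and 5 with the block and 6 with block and offset, where 15.1%, 22.9% and 22.2% of all genes were called. Leaving out 1 library gave 1 to 4 members called on day 6, 0 to 3 in the interaction from day 6 to day 9, and 3 to 6 between KO and WT with DMSO. The replicate block lost none of the 46 calls. Where the numbers were not taken as pairs it added Suclg1 and Mdh2 (day 5), Mdh2 (KO, day 9 against day 5), Cs (with DMSO), Idh3a, Sdha and Mdh2 (KO against WT with ORY), Sdhb and Mdh2 (ORY in WT), and in the interactions Cs, Suclg1, Mdh2, Idh3a and Sdhb. None of the calls it added on days 5, 6 and 9 was made with summed libraries, where Suclg1 and Mdh2 on day 5 had adjusted p = 0.424 and 0.326.

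Over all genes, scaling by library size only moved the calls higher and lower from 779 and 1099 to 954 and 854 on day 5, from 1420 and 1428 to 1146 and 1735 for WT and from 1683 and 1381 to 1223 and 2035 for KO from day 5 to day 9, from 2025 and 2282 to 1386 and 3148 with DMSO, from 67 and 71 to 39 and 110 with ORY, from 2429 and 2193 to 3011 and 1613 for ORY in KO, and from 1198 and 940 to 1518 and 732 in its interaction. Summed libraries took the calls of all genes from 1878 to 297 on day 5, 1649 to 217 on day 6, 1476 to 141 on day 9, 2848 to 981 for WT and 3064 to 1256 for KO from day 5 to day 9, and in the interactions from 1581 to 187, 1157 to 40 and 980 to 50, with fewer samples by construction. On day 4, 182 genes were called, and 304 with no filter, 361 with DESeq2 and 349 with block and offset. With ORY, 138 were called between the genotypes, and 279 with no filter, 319 with DESeq2, 820 with the block, 396 with the offset and 732 with both. For ORY in WT the block gave 2740 against 1801, in the interactions 1769 against 1157 (offset 676) and 1548 against 980, and the offset 922 against 1581 from day 5 to day 6. Only the groups compared gave 921 against 1476 on day 9. The cause of these changes was not tested.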
